A study of Mus musculus with 6 samples.

Results

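The nuclear-encoded genes of the mitochondrial respiratory chain and ATP synthase were followed in mouse embryoid bodies differentiated towards motor neurons. Members were all genes of the count tables whose symbol starts with Ndufa, Ndufb, Ndufc, Ndufs, Ndufv, Uqcr or Atp5 or matches Cox4 to Cox8, with Cox7b and pseudogene symbols left out, which gave 88 of 31053 genes. The cells were HB9::GFP mouse embryonic stem cells, which carry a green fluorescent reporter under the promoter of the motor neuron gene Hb9 (Mnx1), and they were taken as embryoid bodies on day 6. The 3 genotypes were WT (wild type), DeltaSP (labelled lncMN2_SP-/-) and KO (labelled lncMN2-/-), where both edited lines were made with CRISPR/Cas9 in the locus of the long noncoding RNA lncMN2, and all 3 carry the reporter. Each genotype has 2 libraries, each from 1 clone, so clone and library cannot be told apart and a p-value measures only the spread between 6 libraries of droplet-based single-cell RNA sequencing.

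The respiratory chain sits in the inner mitochondrial membrane. Complex I (NADH dehydrogenase) and complex II pass electrons to ubiquinone, complex III passes them to cytochrome c, and complex IV (cytochrome c oxidase) passes them to oxygen, while complexes I, III and IV pump protons that drive ATP synthase, complex V. Most subunits are encoded in the nucleus, made in the cytosol and imported. They are assembled with a small set of subunits encoded in mitochondrial DNA, and neurons depend strongly on this chain for their ATP. The 88 members were 7 nuclear core subunits of complex I, 29 of its accessory subunits, 8 of its assembly factors, 8 subunits of complex III, 10 of complex IV (among them Ndufa4, which was first counted to complex I), 9 tissue isoforms or paralogues of complex IV subunits, 5 subunits of the F1 head of complex V, 11 of its membrane part and stalk, and Atp5s.

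Nuclear respiratory factor 1 (NRF1), ETS-family factors and YY1 are textbook regulators of these genes, so the promoters of 4 members are printed, 2 that fell in KO (Atp5k and Cox6a1) and 2 that did not pass the test there (Uqcrc1 and Atp5g2), all with an NRF1 word. Each runs from 250 bases before to 50 bases after the gene's start, 5′ to 3′ on the gene's strand, in RefSeq's GRCm38.p6: Atp5k at chr5:108434350-108434649 (minus strand), Cox6a1 at chr5:115348909-115349208 (minus), Uqcrc1 at chr9:108936398-108936697 (plus) and Atp5g2 at chr15:102670998-102671297 (minus). Capitals mark matches to GCGCATGCG (NRF1), CCGGAAG (ETS-family factors), AAGATGGC (YY1) or the TATA box word TATAAA on either strand, with overlapping matches counted as 1 place.
Atp5k: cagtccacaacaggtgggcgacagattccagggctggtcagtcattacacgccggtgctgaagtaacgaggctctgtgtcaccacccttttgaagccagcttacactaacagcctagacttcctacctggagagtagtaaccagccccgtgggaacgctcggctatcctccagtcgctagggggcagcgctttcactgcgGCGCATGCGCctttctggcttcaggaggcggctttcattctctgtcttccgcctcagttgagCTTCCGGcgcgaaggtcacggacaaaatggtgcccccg
Cox6a1: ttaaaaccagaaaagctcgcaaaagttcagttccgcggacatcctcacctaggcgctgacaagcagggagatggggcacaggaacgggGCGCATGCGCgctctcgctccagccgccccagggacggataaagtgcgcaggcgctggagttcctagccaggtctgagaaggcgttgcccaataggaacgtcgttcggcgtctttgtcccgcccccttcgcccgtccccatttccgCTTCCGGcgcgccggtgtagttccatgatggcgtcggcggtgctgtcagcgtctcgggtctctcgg
Uqcrc1: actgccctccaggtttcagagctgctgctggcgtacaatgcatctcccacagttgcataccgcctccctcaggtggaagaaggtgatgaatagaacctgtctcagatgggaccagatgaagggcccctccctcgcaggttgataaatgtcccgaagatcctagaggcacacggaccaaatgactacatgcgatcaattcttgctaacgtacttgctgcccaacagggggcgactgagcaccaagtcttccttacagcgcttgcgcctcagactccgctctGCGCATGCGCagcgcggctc
Atp5g2: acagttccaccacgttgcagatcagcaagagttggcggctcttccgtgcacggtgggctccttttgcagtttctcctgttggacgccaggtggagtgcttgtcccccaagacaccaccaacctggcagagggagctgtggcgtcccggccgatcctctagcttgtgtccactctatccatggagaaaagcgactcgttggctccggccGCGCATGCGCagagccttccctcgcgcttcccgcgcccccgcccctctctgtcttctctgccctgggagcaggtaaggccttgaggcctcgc
Of the 88 members, 72 had a promoter in the RefSeq table. The NRF1 word stood in 10 of 72 (13.9%), against 2.41% of 17491 protein-coding genes. The YY1 word stood in 10 (13.9%, against 3.22%), the ETS word in 15 (20.8%, against 11.9%) and the TATA word in 7 (9.72%, against 13.3%). Among the 33 matched members that fell in KO the NRF1 word stood in 5 (15.2%), and among the 39 others in 5 (12.8%), while the ETS word stood in 10 (30.3%) and 5 (12.8%). These are matches of letters in one window and not binding sites.

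The deposited tables held 2161 to 9345 barcodes and 24191242 to 49061693 unique molecular identifiers (UMIs, each 1 counted RNA molecule) per library. After a filter on cells, 1591 to 4496 cells per library were kept. The median was 4156 UMIs per cell in WT 1 and 11896.5 to 15051 in the other 5 libraries, and any pair of libraries shared 3 to 11 cell barcodes. The edited transcript, annotated as 5330434G04Rik (X:105348282-105391776 in the mm10 build), was at 37.3 and 34.9 CPM (UMIs scaled to a common library size of 1e6 by edgeR's TMM) in WT, 22.5 and 23.3 in DeltaSP, and 0.125 and 0.172 in KO, which rest on 4 and 6 UMIs. The motor neuron genes Mnx1 (88.3 to 154 CPM) and Isl1 (208 to 322 CPM) were present in every library. The pluripotency gene Pou5f1 had at most 12 UMIs in any of them. The 6 pluripotency markers summed to 2.79 to 3.12 CPM in WT, 3.11 to 18.8 in DeltaSP and 6.69 to 18.1 in KO. Of the 3 tested, 0 passed in KO against WT (median log2 fold change 2.05). A finer clustering had 1 cluster named from these markers, of 262 cells. It held 8 and 9 cells in WT, 13 and 112 in DeltaSP and 65 and 55 in KO.

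Together the members took a smaller share of all UMIs in KO than in WT, with DeltaSP between them. The share was 3.71% and 3.39% in WT 1 and 2, 2.54% and 3.09% in DeltaSP 1 and 2, and 2.25% and 1.91% in KO 1 and 2. No genotype overlapped another, and the means were 3.55% ± 0.224 in WT, 2.82% ± 0.388 in DeltaSP and 2.08% ± 0.247 in KO (SD, n = 2). The mean in WT was 1.71 times that in KO. The Wilson 95% intervals, which cover counting error only, were at most 0.0164 percentage points wide, so the spread between libraries sets the precision. In sums over whole libraries, fewer cells of a type and less RNA per cell cannot be told apart.

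The order WT, DeltaSP, KO also held inside classes of cells. Cells were clustered without the members, and clusters were named from marker genes as progenitor-like (neural progenitor and floor plate markers) or neuron-like (motor neuron, interneuron and general neuronal markers). The members' mean share was 3.62%, 2.84% and 2.12% in the progenitor-like cells of WT, DeltaSP and KO and 3.64%, 2.87% and 2.07% in the neuron-like cells. Of 16 clusters, 12 had at least 20 cells in a WT and in a KO library. In 12 of these 12, every WT library with that many cells lay above every such DeltaSP library. Every such DeltaSP library lay above every such KO library. In some of them only 1 WT library or only 1 KO library had that many cells. All 12 clusters are parts of the same 6 libraries, so they do not count as separate replicates. Across those clusters the share ran from 2.93% to 3.87% in WT and from 1.75% to 2.35% in KO. WT 1 filled its classes largely from clusters of its own. It held 1028 of the 1063 cells of a progenitor-like cluster led by AY036118 and Gm11361, with Hoxb5os, Cyp26b1, Rplp1 and Rps18 also among its leading genes. It also held 862 of the 1007 cells of a neuron-like cluster led by Gm2694 and Gm26735, followed by Sst and Pcdh7.

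**Figure D1:**
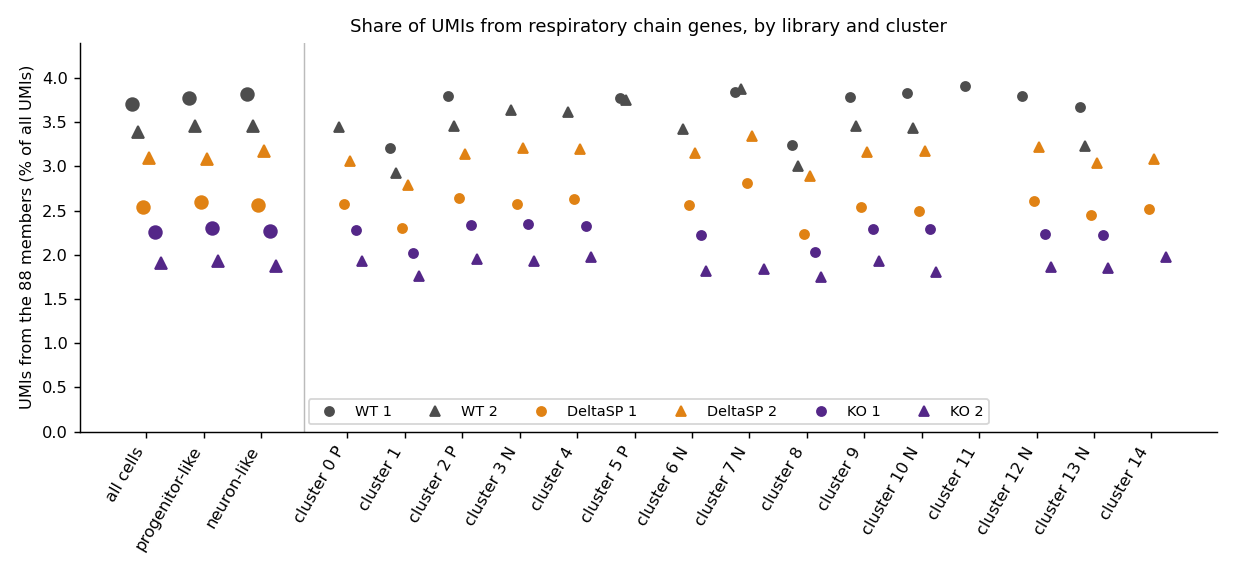
Share of UMIs from the 88 members, in percent, for each library in all cells, progenitor-like cells and neuron-like cells and in each cluster (P and N mark the 2 classes, circles replicate 1, triangles replicate 2). WT libraries lie at 3.39% and 3.71% in all cells and KO libraries at 1.91% and 2.25%, and WT points lie above KO points in each cluster that shows both.

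A pair of clusters without a class, both with the stress-response transcription factor genes Jun and Junb among their 10 leading genes, had the lowest member share in each of the 6 libraries. The first (2316 cells), led by the chemokine gene Cxcl10, had 3.21% and 2.93% in WT, 2.31% and 2.79% in DeltaSP and 2.02% and 1.76% in KO. The second (913 cells), led by Mnx1 and with Lhx3 among its leading genes, both markers of motor neurons, had 3.25% and 3.001% in WT, 2.24% and 2.89% in DeltaSP and 2.03% and 1.75% in KO. Their cells were shallow, with a median depth of 0.758 and 0.625 times that of their own libraries; the part of depth in the lower share was not tested.

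The fall in KO was uneven between complexes. Complex IV subunits took 1.12% and 1.0003% of UMIs in WT, 0.614% and 0.805% in DeltaSP and 0.525% and 0.404% in KO. Accessory subunits of complex I took 1.02% and 0.912% in WT and 0.559% and 0.439% in KO. The 7 core subunits of complex I, in contrast, took 0.119% and 0.121% in WT and 0.143% and 0.143% in KO. The F1 head of complex V took 0.310% and 0.323% in WT and 0.302% and 0.311% in KO. Shares are of all UMIs without TMM scaling, unlike the CPM and fold changes below. On the TMM scale the core subunits had a median log2 fold change of -0.03 in KO against WT. For comparison, the 13 mitochondrially encoded subunits took 4.998% and 3.91% in WT and 4.17% and 3.84% in KO, and cytosolic ribosomal protein genes 18.4% and 15.7% in WT and 11.8% and 10.7% in KO.

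**Figure D2:**
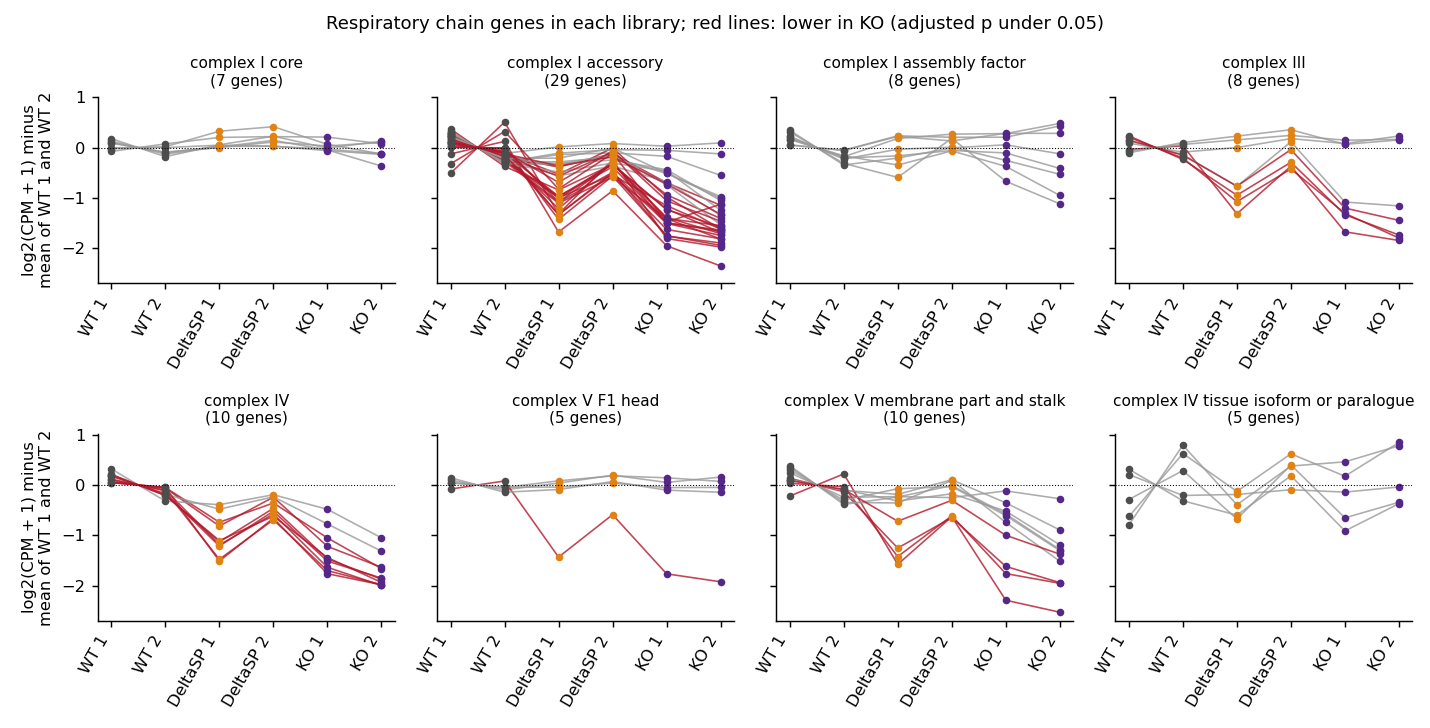
Level of each member in each library as log2(CPM + 1) minus the mean of the WT libraries, 1 line per gene, in a panel for each complex or part of one (red lines fell in KO at an adjusted p under 0.05). Lines of complex IV and most accessory subunits of complex I drop from WT to KO, and lines of the 7 complex I core subunits stay near 0.

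KO was compared with WT in edgeR's quasi-likelihood test on UMIs summed per library, with Benjamini-Hochberg adjustment over all genes. Of the 83 members with enough counts to be tested over all cells, 37 fell and 0 rose at an adjusted p under 0.05, where 4.53% of all 14872 genes tested fell and 2.68% rose. The members' median log2 fold change was -0.95, and that of all genes tested 0.00. Both KO libraries lay below both WT libraries for 58 of 83 members (69.9%, against 29.2% of all genes). The call count rests on few libraries. Without KO 1 or without KO 2 edgeR called 0 members (53 and 39 at an unadjusted p under 0.05, medians -1.27 and -0.72), without WT 1 it called 8 and without WT 2 51, and the DESeq2 Wald test on all libraries called 51.

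Complex I split by the kind of subunit. Its core subunits include those with the flavin and iron-sulfur clusters through which electrons pass, and 0 of 7 passed the test (median log2 fold change -0.03, range -0.20 to 0.14). Ndufs1, the subunit with the most clusters, was at 91.7 and 91.9 CPM in WT, 95.05 and 93.8 in DeltaSP and 88.1 and 83.6 in KO. Ndufv1, which binds NADH, was at 179 and 140 CPM in WT, 165 and 185 in DeltaSP and 157 and 173 in KO. For Ndufv1 the WT and KO libraries overlapped, and the log2 fold changes of Ndufs1 and Ndufv1 were -0.10 and 0.05.

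Accessory subunits surround this core and are needed for its assembly and stability, and 20 of 29 fell (median -1.34). Ndufa1, a small membrane-spanning subunit encoded on the X chromosome (X:37187588-37191163), was at 259 and 308 CPM in WT, 87.6 and 155 in DeltaSP and 72.3 and 54.5 in KO. WT stood apart from both edited genotypes, and KO was 4.47-fold lower than WT (log2 fold change -2.16, SE 0.29, adjusted p = 0.0258, edgeR). Ndufa3 was at 168 and 341 CPM in WT, 95.3 and 202 in DeltaSP and 67.8 and 60.1 in KO. Here the WT libraries differed from each other by more than the KO libraries did, and DeltaSP 2 lay above WT 1 (KO against WT -1.99, SE 0.42, adjusted p = 0.0407, edgeR).

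Ndufa5, a subunit of the arm in the matrix, was at 404 and 343 CPM in WT, 147 and 265 in DeltaSP and 110 and 96.2 in KO. Ndufb2, of the membrane arm, was at 235 and 232 CPM in WT, 86.4 and 158 in DeltaSP and 68.4 and 62.2 in KO. Both fell with non-overlapping libraries (log2 fold changes -1.86 and -1.84, adjusted p = 0.0258 for each, edgeR). Ndufb11, the other X-linked member, was at 408 and 318 CPM in WT, 276 and 332 in DeltaSP and 222 and 162 in KO (-0.92, SE 0.22, adjusted p = 0.0496, edgeR), so it passed by a narrow margin. Ndufa1 lies 68.2 Mb and Ndufb11 84.7 Mb from the edited gene. Cox7b, 0.667 Mb away, is not among the members (-1.68, adjusted p = 0.0297, edgeR). The 9 accessory subunits that did not pass ranged from -1.12 (Ndufb9) to 0.06 (Ndufa10).

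Assembly factors are not part of the finished complex I, and 0 of 8 passed, with a range from -0.92 (Ndufaf8) to 0.39 (Ndufaf7). Ndufaf7, a methyltransferase, was at 28.2 and 21.7 CPM in WT, 28.3 and 30.1 in DeltaSP and 30.3 and 35.0 in KO (adjusted p = 0.176, edgeR).

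In complex III, the small subunits fell and the large ones did not pass. Uqcr11 was at 573 and 604 CPM in WT, 236 and 456 in DeltaSP and 184 and 163 in KO, with no overlap between genotypes (-1.76, SE 0.30, adjusted p = 0.0297, edgeR). Uqcrb, Uqcrh and Uqcrq fell by 1.55, 1.54 and 1.33 on the log2 scale, and Uqcr10, at -1.13, missed the threshold (adjusted p = 0.0562, edgeR). Uqcrfs1, the Rieske iron-sulfur protein of the electron path, was at 253 and 277 CPM in WT, 295 and 314 in DeltaSP and 294 and 297 in KO. Uqcrc1, a core protein of the complex whose promoter is printed above, was at 180 and 207 CPM in WT, 227 and 248 in DeltaSP and 202 and 215 in KO. Fold changes for Uqcrfs1, Uqcrc1 and Uqcrc2 were 0.16, 0.11 and 0.16 (adjusted p = 0.508, 0.669 and 0.532, edgeR). The KO libraries lay above both WT libraries for Uqcrfs1.

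In complex IV, whose catalytic subunits are encoded in mitochondrial DNA, 8 of the 10 nuclear subunits fell and all 10 had a negative fold change (median -1.68). Cox7c was at 2056 and 1926 CPM in WT, 698 and 1258 in DeltaSP and 585 and 502 in KO, 3.66-fold lower in KO than in WT (-1.87, SE 0.30, adjusted p = 0.0275, edgeR). Cox6c was at 1276 and 1084 CPM in WT, 422 and 728 in DeltaSP and 361 and 297 in KO. Cox6b1, which faces the intermembrane space, was at 810 and 708 CPM in WT, 331 and 508 in DeltaSP and 243 and 189 in KO. For all 3 the genotypes did not overlap and stood in the order WT, DeltaSP, KO.

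Cox8a was at 1522 and 1144 CPM in WT, 602 and 957 in DeltaSP and 476 and 360 in KO. Ndufa4 was at 1352 and 1012 CPM in WT, 543 and 761 in DeltaSP and 430 and 305 in KO. Together with Cox7a2 they fell by 1.67 (Cox8a), 1.69 (Ndufa4) and 1.69 (Cox7a2) on the log2 scale. Cox6a1, the other promoter shown above, was at 766 and 716 CPM in WT, 443 and 577 in DeltaSP and 357 and 234 in KO (-1.33, adjusted p = 0.0327, edgeR). The 2 that did not pass, Cox4i1 and Cox5a, have the longest coding sequences of the 10 (507 and 438 bases). Cox4i1 was at 2091 and 1342 CPM in WT, 1277 and 1464 in DeltaSP and 1198 and 808 in KO (-0.77, adjusted p = 0.129, edgeR), and its WT libraries differed by more than WT 2 and KO 1 did. Cox5a missed the threshold at -1.03 (adjusted p = 0.0503, edgeR).

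In complex V the rotating and catalytic head differed from the membrane part. Of the 5 F1 subunits, 1 fell: Atp5e, the epsilon subunit of the central stalk, was at 825 and 922 CPM in WT, 322 and 579 in DeltaSP and 256 and 229 in KO (-1.85, SE 0.28, adjusted p = 0.0258, edgeR). Atp5b, the catalytic beta subunit, was at 1032 and 846 CPM in WT, 878 and 980 in DeltaSP and 871 and 845 in KO, so the genotypes overlapped (-0.13, adjusted p = 0.680, edgeR). Atp5a1, Atp5c1 and Atp5d, the alpha, gamma and delta subunits, were at -0.05, 0.10 and 0.11.

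Of the membrane part and stalk, 4 of 10 tested fell, and all 10 had a negative fold change (median -1.03). Atp5k, subunit e, which joins ATP synthases in pairs, was at 518 and 704 CPM in WT, 202 and 390 in DeltaSP and 123 and 104 in KO. Its genotypes did not overlap, and at 5.40-fold lower in KO it had the largest fall of the members tested (-2.43, SE 0.33, adjusted p = 0.0258, edgeR). Atp5j2 (subunit f) was at 1057 and 1008 CPM in WT, 384 and 675 in DeltaSP and 304 and 266 in KO (-1.86, adjusted p = 0.0258, edgeR), and Atp5l (subunit g) and Atp5j fell by 1.78 and 1.18 on the log2 scale. The 3 genes for the proton-carrying subunit c, which encode the same mature protein, did not pass: Atp5g1 was at -1.12, Atp5g3 at -0.82 and Atp5g2 at -0.60 (adjusted p = 0.0812, 0.0752 and 0.143, edgeR). Atp5g2 was at 1055 and 909 CPM in WT, 861 and 1053 in DeltaSP and 766 and 527 in KO. Atp5o.1 (-0.95, adjusted p = 0.0803, edgeR) holds nearly all reads of the subunit OSCP because the annotation has 2 overlapping entries for Atp5o, so both are uncertain.

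Members that fell had shorter transcripts than those that did not pass. Their principal transcript (GENCODE M21) had a median of 572 bases (371 to 1582, n = 37) and a median coding length of 315 bases, against 1079 (393 to 3632, n = 45) and 555 for the others with a length. Short transcripts of other genes were lower in KO as well: the median log2 fold change was -1.43 for the 210 other genes of up to 500 bases, of which 79 fell, and -1.55 for the 10 members of that length. At 500 to 600 bases it was -1.25 for other genes and -1.58 for members (14 of 15 fell), at 600 to 700 bases -0.82 and -1.15 (6 of 10 fell), at 700 to 800 bases -0.39 and -0.80 (1 of 8 fell), and at 800 to 1000 bases -0.15 and -1.05 (6 of 10 fell). Above 1000 bases the medians of other genes lay between -0.01 and 0.08 and those of members between -0.27 and 0.06. The 4 members above 1000 bases that fell were Ndufc1, Ndufa13, Ndufv3 and Ndufa12.

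The shorter members also separated libraries of one genotype. As log2(CPM + 1) minus the WT mean, the 35 members of up to 700 bases had medians of 0.13 and -0.13 in WT 1 and 2, -0.97 and -0.34 in DeltaSP 1 and 2, and -1.33 and -1.69 in KO 1 and 2. The 29 members above 1000 bases had 0.11, -0.11, -0.03, 0.03, -0.05 and -0.12 in the same order. With a trend over the longest transcript taken out of the counts, 28 members passed, 27 of them among the 37. The median of all 83 tested members was then -0.50. With a trend over the principal transcript taken out, the median of the 83 was -0.33. This alternative was chosen after seeing the data. With it, 17 of the 37 still fell and Atp5g2 passed as higher. By part, that left 9 of 29 accessory subunits of complex I, 5 of 10 complex IV subunits (Cox5b, Cox6b1, Cox7a2, Cox8a and Ndufa4, median of the 10 -0.76), 3 of the 10 subunits of the membrane part and stalk, 0 of 5 F1 subunits and 0 of 8 complex III subunits (median 0.02). What makes short transcripts lower in these libraries was not tested.

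**Figure D3:**
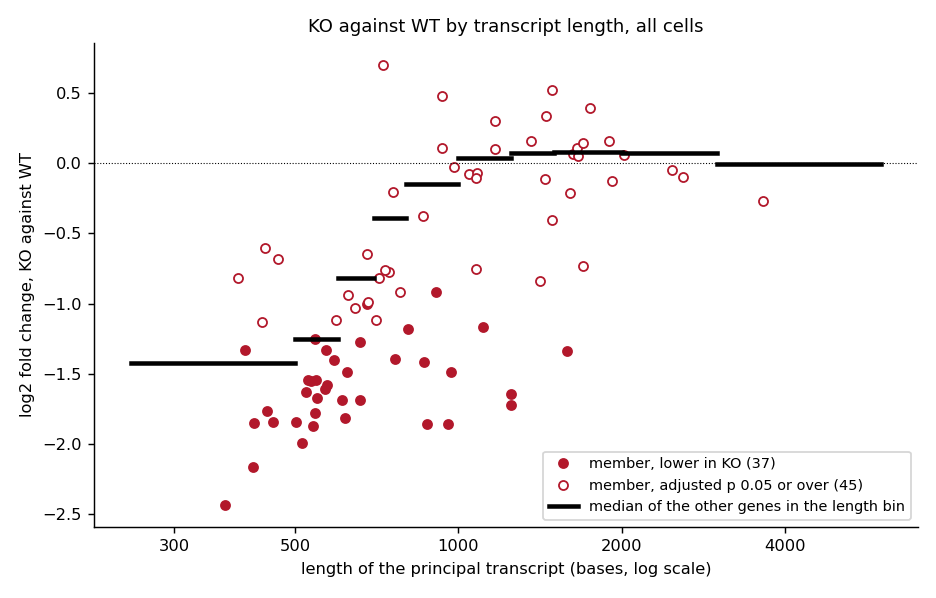
log2 fold change of KO against WT over all cells (vertical) against the length of the principal transcript in bases (horizontal, log axis) for each tested member, with black bars for the median of all other genes in each length bin. Members of up to 600 bases have medians of -1.55 and -1.58, other genes of up to 500 bases have a median of -1.43, and members above 1000 bases lie between -0.84 and 0.52 apart from the 4 that fell.

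Some markers of cell types moved too, where sums per library cannot tell fewer cells of a type from less RNA per cell. Of 15 general neuronal markers (such as Dcx, Mapt and Stmn3), 8 fell and 0 rose in KO (median -0.98), their summed level was 10265 to 12399 CPM in WT, 7092 to 9268 in DeltaSP and 5767 to 7036 in KO, and none was at 0. The progenitor genes Olig1 and Olig2 rose, with the 4 markers of motor neuron progenitors summing to 336 to 346 CPM in WT and 517 to 566 in KO. Other neural lists moved less: 1 of 10 motor neuron markers fell, 0 of 14 interneuron and 0 of 8 p3 or floor plate markers passed. Of 10 neural progenitor markers 1 rose and 1 fell, and of 10 markers of committing neuronal precursors 2 rose. Neuron-like cells made up 33.4% and 36.5% of WT libraries and 24.3% and 24.9% of KO libraries. This order depended on the clustering and on which clusters were given a class. At a finer clustering they made up 10.4% and 27.5% of WT 1 and 2. They made up 16.5% and 16.7% of KO 1 and 2 there, so the genotypes overlapped. A cluster of 825 cells, 679 of them from WT 1, had no class there because no listed marker was among its 10 leading genes. Its summed general neuronal markers nevertheless stood at a log2 of 1.67 over the other cells. The part of composition in the fall of the members was not tested, and the clusters that make up each class differ between libraries.

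Within progenitor-like cells, 29 of 83 members fell in KO and 0 rose (edgeR), where 1.93% of 12523 genes fell and 0.208% rose, with a median of -0.96. Within neuron-like cells, 35 of 82 fell and 0 rose, where 3.43% of 12813 genes fell and 1.53% rose, with a median of -1.05. All 29 members called in progenitor-like cells were among the 35 called in neuron-like cells (82.9% of those). By part, the calls in progenitor-like and neuron-like cells were 0 and 0 of 7 complex I core subunits, 13 and 17 of 29 accessory subunits, 3 and 4 of 8 complex III subunits, 8 and 9 of 10 complex IV subunits, 1 and 1 of 5 F1 subunits, and 4 and 4 of 10 subunits of the membrane part and stalk.

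Atp5k was at 551 and 748 CPM in the progenitor-like cells of WT, 220 and 413 in those of DeltaSP and 130 and 106 in those of KO. In neuron-like cells Atp5k was at 582 and 782 CPM in WT, 220 and 433 in DeltaSP and 136 and 106 in KO. The 2 classes thus showed the same order of libraries and log2 fold changes of -2.461 and -2.498. Cox5a passed in neuron-like cells only by a narrow margin (-1.12, adjusted p = 0.0492, edgeR) and did not pass in progenitor-like cells (-0.96, adjusted p = 0.122).

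The difference of the KO effect between the classes was itself tested, with library as a block. By edgeR, 0 of 83 members passed (smallest adjusted p = 0.163 for Atp5o.1), where 0.00735% of 13612 genes passed. At an unadjusted p under 0.05 were 14 of 83 members and 1816 of 13612 genes, so the 14 are not read as a result about the members. The same test of the DeltaSP effect gave 0 of 83 members (smallest adjusted p = 0.489 for Cox4i2), where 0.00735% of all genes passed. Unadjusted, 4 of 83 members and 1052 of 13612 genes were under 0.05. The class counts also depend on the libraries, the settings and which clusters were given a class. With a looser cell filter, a cluster of 840 cells, 681 of them from WT 1, had no class. Its general neuronal markers stood at a log2 of 1.655 over the other cells. The neuron-like cells of WT 1 had a median of 1008.5 UMIs there, against 4464 in the main setting. The finer clustering left out the cluster of 825 cells described above. Both alternatives thus compare other neuron-like cells of WT 1. In progenitor-like cells edgeR called 0 without KO 1 or KO 2 (54 and 41 unadjusted), 7 without WT 1, 49 without WT 2, 9 with the trend over the longest transcript taken out and 0 with that over the principal transcript (41 unadjusted), while DESeq2 called 48. In neuron-like cells edgeR called 0 without KO 1 or KO 2 (54 and 43 unadjusted), 23 without WT 1, 0 with a looser cell filter and 0 at a finer clustering (54 and 52 unadjusted), while DESeq2 called 50.

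In DeltaSP, 0 of 83 members passed against WT over all cells (edgeR), where 0.329% of all genes passed. At an unadjusted p under 0.05 were 25 of 83 members and 2529 of 14872 genes, and DESeq2 called 14 members. The members' median log2 fold change was -0.27 over all cells, -0.32 in progenitor-like cells and -0.28 in neuron-like cells. In these 2 classes edgeR also called 0 members, and 0.00799% and 0.0234% of all genes. Unadjusted, 28 of 83 and 24 of 82 members were under 0.05, against 1721 of 12523 and 1948 of 12813 genes. DESeq2 called 7 and 12 members there. Both DeltaSP libraries lay below both WT libraries for 33 of 83 members (39.8%, against 23.0% of all genes). The members with the smallest p were Ndufa1, Atp5l, Cox6c, Atp5j2 and Ndufb2, at -1.22, -0.93, -1.04, -0.96 and -0.94, with adjusted p from 0.159 to 0.185 (edgeR). The DeltaSP libraries differed from each other: DeltaSP 1 lay nearer to KO for each of these 5 genes (Ndufa1 at 87.6 CPM in DeltaSP 1 and 155 in DeltaSP 2). A missed threshold does not show that DeltaSP equals WT, since in simulated data with these depths the test of KO against WT recovered 58 of 100 genes changed 2-fold and 8 of 100 changed 1.5-fold.

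KO against DeltaSP gave 0 of 83 members over all cells (edgeR), where the edited gene alone passed among all genes (0.00672%). At an unadjusted p under 0.05 were 48 of 83 members and 817 of 14872 genes, and DESeq2 called 2 members. The median was -0.68, and both KO libraries lay below both DeltaSP libraries for 61 members (73.5%, against 21.1% of all genes). Smallest p values were those of Atp5k (-1.39), Ndufb6 (-1.03), Ndufs6 (-0.94), Cox6b1 (-0.96) and Cox5b (-0.92), each with an adjusted p of 0.839 (edgeR). In progenitor-like and neuron-like cells the medians were -0.64 and -0.75 with 0 members called in each by edgeR, and 0.00799% and 0.0078% of all genes. Unadjusted, 45 of 83 and 47 of 82 members were under 0.05, against 558 of 12523 and 772 of 12813 genes. DESeq2 called 1 and 4 members there. The 3 comparisons share libraries, so each one's values stand on their own.

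Neuron-like cells differed from progenitor-like cells of the same libraries in small steps. With library as a block, edgeR called 54 of 82 members (65.9%), 19 higher and 35 lower in neuron-like cells, where 82.9% of 12566 genes passed (40.9% higher and 42.0% lower). The members' median absolute log2 fold change was 0.15, and that of all genes tested 0.64. A difference above 1 was found for 1 of 82 members (1.22%) and 34.6% of all genes. Without the block edgeR called 15 members, 3 higher and 12 lower. With a length trend taken out the split turned, to 38 higher and 20 lower (longest transcript) or 45 and 15 (principal transcript), so directions of the smaller differences depend on the scaling.

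Higher in neuron-like cells of 6 of 6 libraries, were Ndufv3, Ndufaf3, Ndufa1, Ndufb10 and Ndufs1, at 0.54, 0.53, 0.38, 0.36 and 0.35 (adjusted p = 7.17e-06, 1.04e-06, 1.85e-06, 2.38e-05 and 0.000103, edgeR). Ndufaf3, an early assembly factor of complex I, was at 75.7 ± 13.6 CPM in neuron-like and 52.2 ± 8.27 in progenitor-like cells (SD, n = 6). Ndufs1 was at 97.2 ± 6.95 CPM in neuron-like and 76.1 ± 4.99 in progenitor-like cells. For Ndufs1 the 2 classes did not overlap over the 6 libraries, with a lowest neuron-like value of 85.3 and a highest progenitor-like value of 83.2 CPM. Ndufb2, Atp5f1, Ndufs5, Ndufs4 and Uqcrfs1 followed, at 0.31 to 0.15.

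Lower in neuron-like cells of 6 of 6 libraries were Ndufaf2, Ndufaf8, Ndufaf6 and Ndufa12. Ndufaf2, the assembly factor that holds the place of Ndufa12 until that subunit is built in, was at 64.1 ± 14.9 CPM in neuron-like and 127 ± 36.5 in progenitor-like cells (-0.97, SE 0.05, adjusted p = 1.2e-08, edgeR). Its paralogue Ndufa12 was at 255 ± 98.0 CPM in neuron-like and 442 ± 181 in progenitor-like cells (-0.78, SE 0.04, adjusted p = 9.45e-09, edgeR). Ndufaf8, a partner of the arginine hydroxylase Ndufaf5, was at -0.96 and Ndufaf6 at -0.61. Of the 8 assembly factors, 1 was higher and 5 were lower, also with the trend over the principal transcript taken out, which with 82.9% of all genes called and 42.0% lower is not read as a result about the group. Complex III had 1 higher and 6 lower of 8 subunits, which became 3 and 3, or 5 and 2, with a length trend taken out; the lower ones were led by Uqcr10 (-0.65) and the core protein Uqcrc2 (-0.48), and of the genes for subunit c Atp5g2 was at -0.51, Atp5g1 at -0.28 and Atp5g3 at 0.07 (not passing).

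Within single genotypes the difference of these genes kept its sign. In the order WT, DeltaSP and KO, Ndufaf2 had log2 fold changes of -1.08, -0.99 and -0.78, and Ndufa12 of -0.88, -0.69 and -0.73. Ndufs1 was at 0.47, 0.35 and 0.27. The values of Ndufaf2 and Ndufs1 were thus nearer to 0 in KO than in WT, and neither these nor other members passed the test of the KO effect by class given above.

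**Figure D4:**
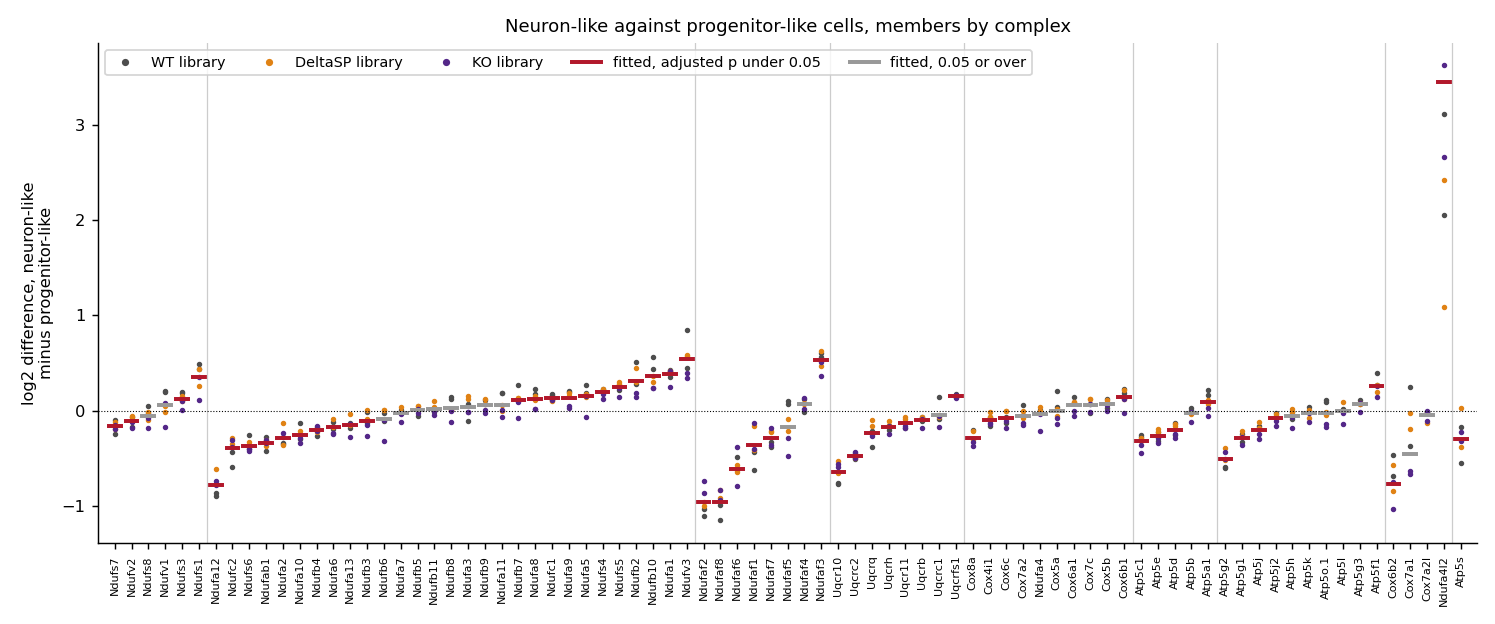
log2 of the level in neuron-like over that in progenitor-like cells by member, with 1 dot for each of the 6 libraries and a line at the fitted value. Apart from Ndufa4l2 at 3.46 the fitted values lie between -0.97 and 0.54.

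Most tissue isoforms had few counts, and the counts of Ndufa4l2 were concentrated in 1 cluster. Ndufa4l2, a paralogue of Ndufa4 known for its induction in hypoxia, had 931 UMIs in all kept cells, and 609 of them (65.4%) fell in 1 neuron-like cluster of 344 cells (2.13% of cells) with Phox2a, a transcription factor gene, Lypd1 and Rgs4 among its leading genes. In that cluster Ndufa4l2 was at 26.6 and 102 CPM in WT, 63.5 and 98.5 in DeltaSP and 104 and 115 in KO, unscaled CPM over the cluster, where the value of WT 1 rests on 4 UMIs in 25 cells. In the other neuron-like cells it was at 1.17 to 4.33 CPM and in progenitor-like cells at 0 to 2.18 CPM over the 6 libraries. The gene was not used in the clustering, and the cluster was higher than the other cells in 6 of 6 libraries. Over whole libraries Ndufa4l2 did not differ between KO and WT beyond the libraries' spread (0.48, SE 0.60, adjusted p = 0.627, edgeR).

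Among the other isoforms, Cox6b2, known from testis, was detected throughout at 11.4 to 28.1 CPM over the 6 libraries and was lower in neuron-like than in progenitor-like cells in 6 of 6 libraries (-0.77, SE 0.08, adjusted p = 5.33e-06, edgeR). Cox7a1, the heart and muscle form, had 390 UMIs and the hypoxia-responsive Cox4i2 243 UMIs in all kept cells. Both were tested and did not pass in KO against WT (-0.82 and 0.70, adjusted p = 0.378 and 0.646, edgeR). Cox6a2, Cox7b2, Cox8b and Cox8c, known from muscle or testis, had 8, 31, 2 and 8 UMIs and were not tested, as was Atp5o. A count of 0 in a library would allow up to 0.0628 to 0.148 CPM. Cox7a2l, a factor of supercomplex assembly, was at 258 to 344 CPM in all libraries and did not pass between genotypes (-0.10, adjusted p = 0.734, edgeR) or classes (-0.05, adjusted p = 0.165, edgeR).

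Other mitochondrial genes were compared by pathway over all cells, KO against WT in edgeR. Of the 13 mitochondrially encoded subunits, 2 fell: mt-Nd3, at 569 and 755 CPM in WT, 146 and 218 in DeltaSP and 68.9 and 91.2 in KO (-3.05, adjusted p = 0.0135), and mt-Nd4l (-1.15, adjusted p = 0.0473). Both are core subunits of complex I with short annotated genes. The median of the 13 was -0.18, and with either length trend taken out 0 of the 13 fell and mt-Atp8 passed as higher. The trends used the annotated length of each gene, which need not be that of the RNA molecule. Complex II (0 of 8), the TCA cycle (0 of 17) and regulators of mitochondrial gene expression (0 of 15) had no call in either direction, with medians of 0.15, 0.24 and 0.13. Of 34 further assembly factors, of complexes I, III, IV and V, 3 fell (Cox20, Uqcc2 and Cox14) and 0 rose, with 1 lower and 1 higher when the trend over the principal transcript was taken out. A list of 12 genes held mostly electron carriers and nucleotide exchangers, and 2 of them fell. They were Atpif1 (-1.855, adjusted p = 0.0258, edgeR) and Cycs, which encodes cytochrome c (-1.06, adjusted p = 0.0386, edgeR). Of 16 import genes 3 fell (Tomm6, Timm8b and Tomm7).

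Mitochondrial ribosomal protein genes had 1 higher and 8 lower of 78 (median -0.03), and cytosolic ribosomal protein genes 0 higher and 25 lower of 80 (median -1.06). With the trend over the longest transcript taken out, the mitochondrial ones turned to 6 higher and 5 lower (median 0.05) and the cytosolic ones had 20 lower (-0.66). With that over the principal transcript taken out, the counts were 4 higher and 2 lower (0.09) and 10 lower (-0.25). Between the classes, mitochondrial ribosomal protein genes were 6 higher and 67 lower of 78 in neuron-like cells (median -0.44), cytosolic ones 0 and 79 of 79 (-0.80), and import genes 1 and 14 of 16 (-0.49). For these lists and the next, 82.9% of all 12566 genes passed in this comparison, 40.9% higher and 42.0% lower. Of the 15 regulators, 3 were higher and 11 lower in neuron-like cells (median -0.57). The lower ones included Tfam, the packaging and transcription factor of mitochondrial DNA (-1.002), Nrf1 (-0.87), Gabpa, the ETS factor known to act on these promoters (-0.98), and the coactivator Pprc1 (-1.48), and the higher ones were the coactivators Ppargc1a (0.77) and Ppargc1b (0.53) and the receptor Esrra (0.54). The members' median in that comparison was -0.05. With either length trend taken out, each of these 4 lists still had more lower than higher calls, and 0 of the cytosolic ribosomal protein genes was higher.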

How the data were processed

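Single-cell RNA sequencing of 6 libraries was analysed from the tables of raw UMI counts, genes by cells, that the authors deposited. Per the submitters' processing notes these come from Cell Ranger 4.0 on mm10, and per the series' design text with Ensembl release 93. The labels give 2 versions of the 3′ kit. The cell filter (1000 or more genes, no more than 10% of UMIs from mitochondrial DNA) left 16225 cells. Scrublet marked 74 of them (0.456%), too few to have worked as a doublet filter, so doublets remain among the 16151 cells used. Clusters (scanpy 1.11.5, leidenalg 0.10.2, resolution 0.6, 2000 variable genes without the members, 30 components, 15 neighbours) were named from marker lists when at least 3 markers supported the name. A class also needed a marker of its lists among the 10 leading genes. Neuron-like clusters further needed summed general neuronal markers at a log2 of at least 0.3 over the other cells. The cluster led by Mnx1, at 0.057, missed this limit and has no class.

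UMIs were summed per library for edgeR 4.0.16 under R 4.3.3 (TMM, filterByExpr, quasi-likelihood F-test, Benjamini-Hochberg over all genes, threshold 0.05) with the 6 libraries in 1 fit; the comparison of classes had library as a block. Standard errors are the log2 fold change divided by the root of F. Alternatives were DESeq2 1.42.0, other filters, scalings and clusterings, single libraries left out, a replicate block and the removal of a trend over transcript length (GENCODE M21, 87 of 88 members with a length). Promoters are RefSeq's (GRCm38.p6).

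The members, gene lists and tests were chosen with earlier results of these data known. Named by rule were, per comparison, up to 10 members with the largest rise and fall among those that passed, did not overlap and had at least 20 CPM, or the 5 with the smallest p, with a chosen set of subunits and every tissue isoform; others appear with their part of a complex. The values of 1 member are not reported here on their own, and both plots that label genes leave it out; it is in every count, share and range. On simulated data the test of KO against WT (14656 genes, 100 changed per fold) recovered 8 genes changed 1.5-fold and 58 changed 2-fold, with 4 false calls.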

Additional observations from a re-analysis of the deposited data

How the results depend on the processing

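Counts of members called moved as follows. For KO against WT, leaving out each library in turn gave 0 to 51 calls over all cells, 0 to 49 in progenitor-like and 0 to 48 in neuron-like cells, with a negative median each time. Taking out a trend over the principal transcript's length (chosen after seeing the data) gave 18, 0 and 18 calls in these 3 sets. In progenitor-like cells there were 54 without a filter on low counts and 48 with the DESeq2 Wald test. Taking out the trend over the longest transcript gave 9 there. In neuron-like cells a looser cell filter (500 genes, 20% mitochondrial UMIs) gave 0 (median -1.03). Resolution 1.2 also gave 0 (median -1.02). In both of these, large clusters of WT 1 cells with high general neuronal markers had no class, as given above. For DeltaSP against WT, no filter gave 23 over all cells and 23 in progenitor-like cells, DESeq2 14, 7 and 12, and leaving out libraries 0 to 0, 0 to 3 and 0 to 2. For KO against DeltaSP, no filter gave 42 and 40 (all and progenitor-like cells), and DESeq2 2, 1 and 4. Between classes, no library block gave 15 and leaving out libraries 49 to 59. No alternatives were run on the test of the KO effect by class.

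Some directions reversed. Atp5g2 in KO against WT was at 0.73 over all cells and 0.78 in neuron-like cells with the principal-transcript trend out. Between classes, Cox4i1 was at 0.092 and Cox7a2 at 0.16 with the longest-transcript trend out, and Ndufa4 at 0.19, Cox4i1 at 0.095, Cox5a at 0.22, Cox6c at 0.18, Cox7a2 at 0.16 and Cox7a2l at 0.074 with the principal-transcript trend out. Of 4006 values of 47 members under alternatives, 3659 kept direction and side of the threshold or passed in neither fit, 127 gained it, 210 lost it and 10 reversed. Over a total without mitochondrially encoded and ribosomal protein genes, the members' share was 4.84% and 4.22% in WT, 3.07% and 3.89% in DeltaSP and 2.68% and 2.23% in KO.

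With the replicate number as a block, KO against WT had 35, 26 and 34 calls in the 3 sets, and the other genotype comparisons 0. Same-numbered libraries did not deviate together throughout (correlations of -0.218 for WT and DeltaSP, 0.293 for WT and KO and 0.0462 for DeltaSP and KO), so the numbers are not taken as pairs. The cause of these changes was not tested.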
